A study of Homo sapiens with 6 samples.

Results

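Notch signalling genes were measured in DLD1 cells, a human colorectal cancer cell line, and in DLD1 cells whose p85β protein carries the K477A and R478A substitutions (p85β KR-AA). The 10 genes were chosen by name, with earlier results of these data known and by no threshold on their values, and are 3 receptors (NOTCH1, NOTCH2 and NOTCH3), 4 ligands (JAG1, JAG2, DLL1 and DLL4), the DNA-binding factor RBPJ and 2 target genes (HES1 and HEY1). All 10 were found among the 58884 Ensembl genes of the deposited table, and all 10 passed the filter on low counts. RNA was sequenced in 3 libraries of parental cells and 3 libraries of p85β KR-AA cells. Both groups carry the helical-domain mutation of PIK3CA that the DLD1 line has. Both alleles of PIK3R2, which encodes p85β, were edited with CRISPR/Cas9 to place the 2 substitutions in its predicted nuclear localization sequence. The study describes independently derived knock-in clones, and the labels do not say from which clone a library came, so a clone and the substitutions cannot be told apart here. The titles and genotype labels of all 3 mutant libraries read R478A, while the source labels of replicates 2 and 3 read R479A and R480A. Nothing in the labels says that the 3 libraries of a group came from separate cultures, so p-values measure the spread between these libraries, which may be technical.

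Notch receptors are membrane proteins that are activated by ligands of the Jagged and Delta-like families on neighbouring cells. Ligand binding exposes the receptor to an ADAM metalloprotease and then to γ-secretase, which releases the intracellular domain. This domain enters the nucleus, joins RBPJ and a Mastermind-like coactivator on DNA, and turns on target genes of the HES and HEY families, which encode transcriptional repressors. Without the intracellular domain, RBPJ is held in complexes with corepressors. In the intestinal epithelium, Notch signalling maintains progenitor cells and favours absorptive over secretory differentiation.

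Target promoters were examined first, because RBPJ is known to bind DNA at the core letters TGGGAA. Promoter sequences were taken from RefSeq (GRCh38.p14), and 8 of the 10 genes had an entry, with 12 promoters of 300 bases in all. TGGGAA or its reverse complement TTCCCA was found in 2 of these 12 promoters, those of HES1 and of 1 of the listed starts of RBPJ, or 16.7%. Over all 35116 RefSeq promoters of that length, 24.0% held it on either strand, and 3.80% held it at least 2 times. The longer form GTGGGAA, which contains the core, was found in 6.25% of all promoters. The 200 bases before the transcription start of HES1, RBPJ, HES4 and HEYL are shown for the position of these letters. HES4 and HEYL, targets outside the 10 genes, were picked because they hold the letters. Of 9 genes listed as such targets and with a counted promoter entry 5 held them, while HES2, HES6, HES7 and NRARP did not. Over the whole list of other pathway genes 22 of 78 promoters did, or 28.2%. Capitals mark TGGGAA or TTCCCA, and each sequence is printed 5′ to 3′ on the strand of its gene.
HES1: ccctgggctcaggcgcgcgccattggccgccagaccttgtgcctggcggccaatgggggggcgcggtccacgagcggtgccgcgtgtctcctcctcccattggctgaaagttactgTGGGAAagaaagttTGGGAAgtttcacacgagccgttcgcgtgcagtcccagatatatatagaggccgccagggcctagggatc
RBPJ: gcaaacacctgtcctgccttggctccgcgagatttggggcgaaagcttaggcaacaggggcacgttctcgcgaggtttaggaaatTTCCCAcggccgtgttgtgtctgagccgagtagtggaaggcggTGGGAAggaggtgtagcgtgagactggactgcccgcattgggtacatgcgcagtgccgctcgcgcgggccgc
HES4: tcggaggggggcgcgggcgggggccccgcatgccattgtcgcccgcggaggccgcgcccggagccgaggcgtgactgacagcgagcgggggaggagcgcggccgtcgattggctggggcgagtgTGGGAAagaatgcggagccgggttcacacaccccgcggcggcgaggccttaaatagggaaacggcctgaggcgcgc
HEYL: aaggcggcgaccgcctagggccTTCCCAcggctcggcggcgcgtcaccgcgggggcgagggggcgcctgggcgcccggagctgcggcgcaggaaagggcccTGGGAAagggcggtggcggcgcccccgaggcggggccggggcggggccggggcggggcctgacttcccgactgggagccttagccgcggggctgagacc
The windows are chr3:194135948-194136147 (+) for HES1, chr4:26319546-26319745 (+) for RBPJ, chr1:1000098-1000297 (-) for HES4 and chr1:39639644-39639843 (-) for HEYL. In HES1 both copies lay on the strand of the gene, 84 and 70 bases before the start. In RBPJ the copies lay on opposite strands, 72 bases before the start on the strand of the gene and 115 bases before it on the other. HES4 held 1 copy, 76 bases before the start. A match of letters is a description and no evidence of binding in these cells.

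Levels are given as CPM, the estimated count relative to a library size that was scaled by TMM (trimmed mean of M-values, a scaling that centres the bulk of the genes). The libraries held 20301932 to 20873475 estimated counts in parental cells and 20301396 to 26712816 in p85β KR-AA cells. A single count was worth 0.0617 to 0.0728 CPM in parental and 0.0273 to 0.0364 CPM in mutant libraries. Differences are log2 fold changes of p85β KR-AA over parental cells from edgeR's quasi-likelihood test over the 16059 genes with enough counts. A gene was called changed at a fold change of at least 3 with a Benjamini-Hochberg adjusted p under 0.01, the thresholds of the study's methods. By this rule 28.6% of all genes tested were called higher in the mutant cells and 17.6% lower. The difference moved with gene length, since 56.7% of the 3301 genes longer than 5000 bases were called higher and 2.79% lower, against 21.4% and 21.4% of the 12758 shorter ones. It also moved with the scaling. Library totals in place of TMM raised the median log2 fold change of all genes from 0.32 by 0.92, and 43.9% of genes were called higher and 6.06% lower. The counts below are to be read beside these shares, and directions that turned under library totals or under offsets for length and GC content are given with the genes they concern. In these bulk libraries a change in the share of cells that express a gene and a change in RNA per cell cannot be told apart.

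The edited gene PIK3R2 was read at 524, 169 and 313 counts in parental cells and 503, 476 and 125 counts in mutant cells, which overlapped, and its log2 fold change was -0.93 (SE 0.42, edgeR adjusted p = 0.0558). That direction turned to 0.41 with the offsets (adjusted p = 0.379), and it was -0.0041 with library totals. With a library left out it ran from -1.26 without p85β KR-AA replicate 2 (adjusted p = 0.0235) to -0.45 without parental replicate 1 (adjusted p = 0.361). A count table does not show the edited bases. A readthrough gene overlaps PIK3R2 on the same strand. It held 2902, 2288 and 2807 counts in parental and 1766, 1202 and 1781 counts in mutant libraries. These counts were larger than those of PIK3R2 and lower in every mutant library than in every parental one. How reads were split between the pair is not known, so the RNA level of PIK3R2 is uncertain. The colon label was compared with 12 epithelial markers, of which 11 were above 1 CPM in every parental library and 9 in every mutant library. Of the 11 tested, 2 were called higher (CDH1 and CDH17) and 6 lower, among them KRT8, KRT18 and KRT19, and their summed level was 57232 to 79265 CPM in parental and 8813 to 10314 CPM in mutant libraries. Most of the epithelial sum was KRT8, KRT18 and KRT19, at means of 37381, 18441 and 11444 CPM in parental and 4454, 2537 and 1739 CPM in mutant cells. No other epithelial marker had a mean above 347 CPM in either group. CDX1 had at most 3 counts in every library. Of 14 mesenchymal markers, 10 were tested, 7 were called higher and 0 lower, and their sum was 12.3 to 16.3 CPM in parental and 6348 to 7265 CPM in mutant libraries. Most of the mutant sum was FN1, at a mean of 4.28 CPM in parental and 4992 CPM in mutant cells, and VIM, at 0.803 and 1772 CPM, and no other of these markers had a mean above 26.2 CPM. COL1A2, THY1, PDGFRA and POSTN had at most 3 counts in every mutant library. Of 9 matched endothelial markers, 5 were tested, KDR was called higher and VWF, EGFL7 and ESAM lower, with sums of 167 to 220 and of 42.7 to 46.9 CPM, and CDH5, TEK and TIE1 had at most 3 counts in every library. These markers moved with the groups in the same libraries as the Notch genes, and their part in the results was not tested.

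Of the 10 Notch genes, 4 were called higher in p85β KR-AA cells, NOTCH2, NOTCH3, RBPJ and HEY1, and 0 were called lower. This compares with 28.6% called higher and 17.6% called lower among all genes tested, or 46.2% in either direction. With offsets for length and GC content 3 were called higher, NOTCH3, RBPJ and HEY1, beside 19.8% of all genes, and 0 lower, beside 4.96%. Library totals called 6 higher, the 4 with NOTCH1 and JAG1, beside 43.9%, and 0 lower, beside 6.06%. Of the 6 genes longer than 5000 bases 3 were called higher and 0 lower, beside 56.7% and 2.79% of all genes of that length, and of the 4 shorter ones 1 was, beside 21.4%. Such shares are near the background, so the count by itself is no result about these genes. At an adjusted p under 0.01 with no fold threshold, 6 were higher and 1 was lower, beside 74.3% of all genes that passed in either direction. The mutant libraries lay above all parental libraries for 6 genes (47.0% of all genes tested) and below them for 2, JAG2 and HES1 (36.5%). DLL1 and DLL4 overlapped between the groups. The median log2 fold change of the 10 genes was 1.00, beside 0.32 for all genes tested.

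**Figure D1:**
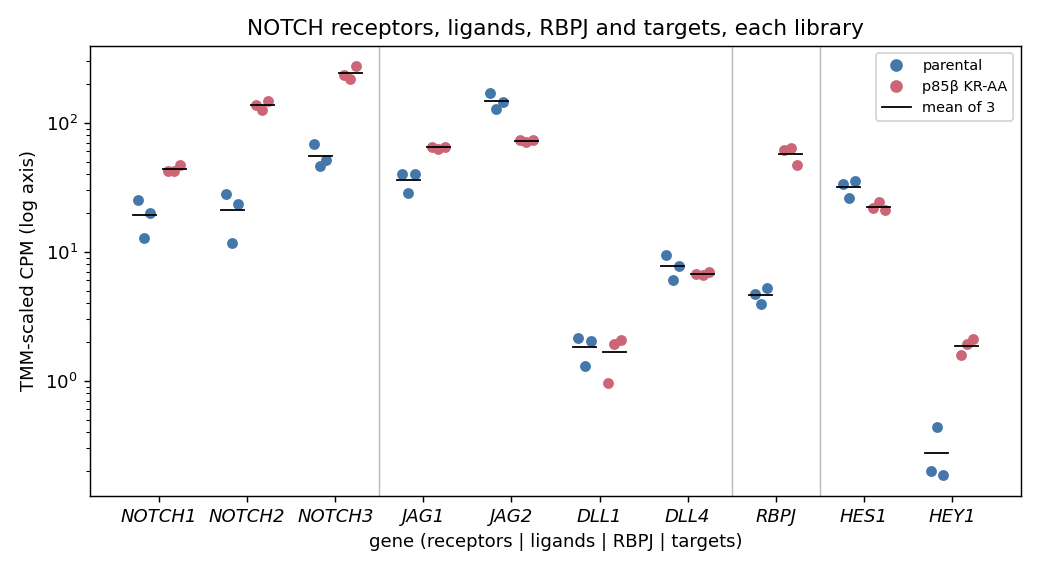
Level of each of the 10 Notch genes in each library (TMM-scaled CPM, log axis), with points for the 3 parental and 3 p85β KR-AA libraries and bars for the mean of each group. RBPJ has the largest difference between group means on this axis, while the points of DLL1 and DLL4 overlap.

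**Figure D2:**
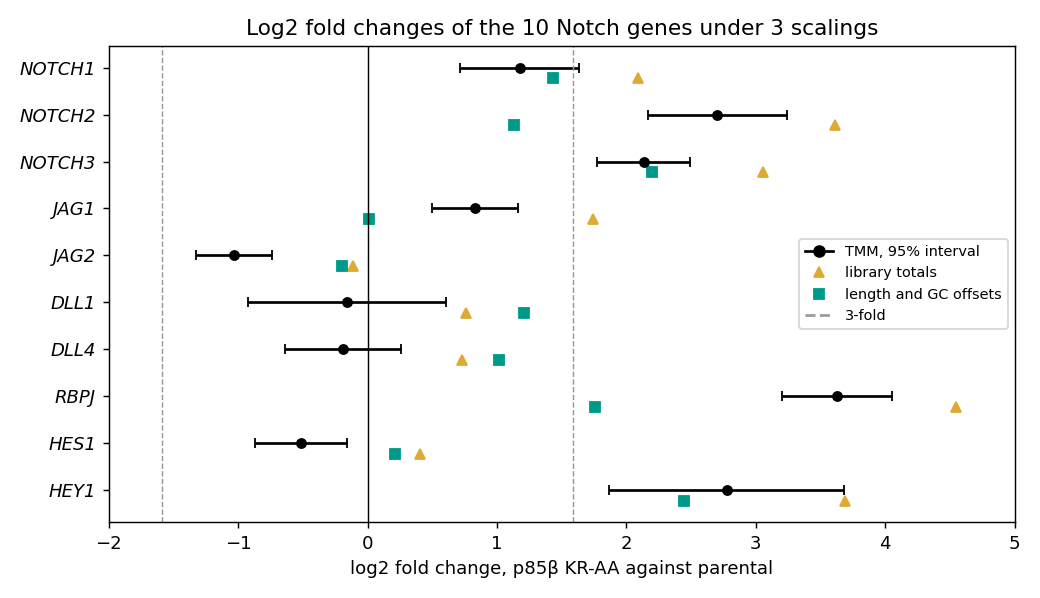
Log2 fold change of each Notch gene (p85β KR-AA over parental) with its 95% interval from edgeR, and the values under other scalings. NOTCH2, NOTCH3, RBPJ and HEY1 lie past a fold of 3 under TMM, and NOTCH2 falls below it with offsets for length and GC content.

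The receptors NOTCH2 and NOTCH3 rose in p85β KR-AA cells and NOTCH1 was higher without reaching a fold of 3. NOTCH3, a receptor best known from vascular smooth muscle, was the receptor with the most RNA per length in both groups. NOTCH3 (ENSG00000074181, chr19:15269849-15311806 in GENCODE lifted to GRCh37) was at 68.6, 46.2 and 51.4 CPM in the parental libraries and at 235, 219 and 274 CPM in the mutant libraries. The groups did not overlap, and the lowest mutant library lay more than 3-fold above the highest parental one. NOTCH3 rose by 2.13 on the log2 scale (SE 0.17, edgeR adjusted p = 1.1e-07), a fold change of 4.39 with a 95% interval of 3.41 to 5.63. The value was 3.05 with library totals and 2.20 with offsets for length and GC content, so the call of NOTCH3 held under both.

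NOTCH2 (ENSG00000134250, chr1:120454176-120643366) encodes a receptor expressed widely in epithelia and blood cells. Its level was 28.1, 11.7 and 23.4 CPM in the parental libraries and 138, 126 and 149 CPM in the mutant libraries. Parental replicate 2 was the lowest of all, and each mutant library was above each parental library. NOTCH2 rose by 2.70 on the log2 scale (SE 0.25, adjusted p = 4.74e-07), a fold change of 6.50 with an interval of 4.48 to 9.45. With offsets for length and GC content the log2 fold change of NOTCH2 was 1.13 (adjusted p = 3.51e-05), under the fold threshold, so this call depended on the correction. NOTCH2, at 11425 bases, is the longest of the 10 genes.

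NOTCH2 shares nearly identical sequence with the human NOTCH2NL genes, and reads could be split between them in counting. NOTCH2NLA was at 34.8 ± 5.18 CPM (SD, n = 3) in parental and 12.4 ± 0.150 CPM in mutant libraries, with a log2 fold change of -1.48 that did not reach the fold threshold. NOTCH2NLR was called lower (log2 fold change -3.35, adjusted p = 1.5e-04) and NOTCH2NLC higher (1.91, adjusted p = 1.25e-04) under TMM. NOTCH2NLB had a log2 fold change of -1.43. The level of NOTCH2 is uncertain to the extent of such shared reads.

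NOTCH1 (ENSG00000148400, chr9:139388885-139440500), a receptor known to act in intestinal stem and progenitor cells, was at 25.4, 12.8 and 20.0 CPM in parental and 42.0, 42.7 and 46.9 CPM in mutant libraries. The groups did not overlap. Its log2 fold change was 1.18 (SE 0.21, adjusted p = 0.000202), and its fold change of 2.26 had an interval of 1.64 to 3.10, which reaches just past 3. At these thresholds NOTCH1 was called with library totals, where its log2 fold change was 2.09, and not with the offsets (1.44). NOTCH4, the remaining receptor, was low in both groups, at 1.45 ± 0.487 and 1.58 ± 0.312 CPM, with a log2 fold change of 0.12 (SE 0.33, adjusted p = 0.743).

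Among the ligands, JAG1 and JAG2 differed in opposite directions under TMM, and neither reached a fold of 3. JAG1 (ENSG00000101384, chr20:10618332-10654647), a ligand of the Jagged family, was at 40.0, 28.5 and 40.2 CPM in parental and 65.5, 63.1 and 64.9 CPM in mutant libraries. The mutant libraries were all above the parental ones and close to each other. On the log2 scale the difference was 0.83 (SE 0.15, adjusted p = 0.000271), a fold change of 1.78 with an interval of 1.41 to 2.24. It was 1.75 with library totals, where JAG1 was called higher, and 0.01 with offsets for length and GC content.

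JAG2 (ENSG00000184916, chr14:105607319-105635161), the other Jagged ligand, was at 170, 128 and 146 CPM in parental and 73.2, 70.5 and 73.4 CPM in mutant libraries. Each mutant library was below each parental library. Its log2 fold change was -1.03 (SE 0.13, adjusted p = 1.24e-05), with an interval of -1.32 to -0.74. JAG2 stayed on the negative side under every alternative run, but library totals and the offsets brought it much closer to 0. With library totals it was at -0.11 (SE 0.14, edgeR adjusted p = 0.482). With the offsets it was at -0.20 (SE 0.093, adjusted p = 0.0744), and with a replicate block added to them at -0.195 (adjusted p = 0.117). None of these values passed the threshold on adjusted p, so a lower level of JAG2 cannot be given apart from the scaling and the offsets.

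The Delta-like ligands showed no difference past the thresholds. DLL4 (ENSG00000128917, chr15:41221538-41231271), known from endothelial cells, was at 9.37, 6.04 and 7.77 CPM in parental and 6.74, 6.58 and 7.03 CPM in mutant libraries. The mutant libraries lay within the parental range. Its log2 fold change was -0.19 with an interval of -0.64 to 0.26 (adjusted p = 0.407), which turned to 0.73 with library totals and 1.01 with the offsets. DLL1 (ENSG00000198719, chr6:170591294-170615653), a ligand of secretory cells in the intestine, rested on 18 to 33 counts in parental and 35 to 57 in mutant libraries. Its levels were 2.13, 1.31 and 2.04 CPM against 0.955, 1.93 and 2.08 CPM, which overlapped. Its log2 fold change was -0.16 with an interval of -0.92 to 0.61 (adjusted p = 0.689), and it turned to 0.76 with library totals, to 1.21 with the offsets and to 0.15 without p85β KR-AA replicate 1. DLL1 overlaps FAM120B on the opposite strand, and whether strand was used in counting is not stated, so reads of the pair cannot be told apart.

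DLL3, a ligand-like protein that is known to act within the cell rather than to activate receptors, was near absent from parental cells. Its estimated counts were 2, 0 and 0 in parental and 76, 48 and 51 in mutant libraries. The gene was called higher (adjusted p = 7.35e-06), and the size of its fitted fold change depends on the small parental count. DLK2, a relative of the Delta-like ligands that is named after its value was seen, was called lower under TMM (log2 fold change -2.34, adjusted p = 9.04e-06). DLK2 was not called with library totals or with offsets for length and GC content.

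RBPJ showed the largest log2 fold change of the 10 genes under TMM. RBPJ (ENSG00000168214, chr4:26165077-26436753) encodes the DNA-binding protein through which all Notch receptors reach their targets. The gene was at 4.72, 3.93 and 5.24 CPM in the parental libraries, which is 71, 54 and 85 estimated counts, and at 61.5, 64.0 and 46.8 CPM in the mutant libraries. The groups were far apart, with the lowest mutant library above the highest parental one. The difference on the log2 scale was 3.63 (SE 0.19, adjusted p = 7.54e-09), a fold change of 12.4 with an interval of 9.23 to 16.5. With offsets for length and GC content it was 1.76 and still called, and with library totals 4.55. The pseudogenes RBPJP5 to RBPJP7 and the related gene RBPJL had at most 3 counts in every library, and other RBPJ pseudogenes were not matched.

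The target genes HES1 and HEY1 moved in different directions under TMM, and only HEY1 passed the thresholds. HEY1 (ENSG00000164683, chr8:80674606-80680092) encodes a repressor known as a Notch target in vessels and heart. It rested on 3, 6 and 3 counts in parental and 58, 55 and 58 counts in mutant libraries, or 0.199, 0.437 and 0.185 CPM and 1.58, 1.91 and 2.11 CPM. All mutant libraries were above all parental libraries, and the gene was low in both groups. Its log2 fold change was 2.77 (SE 0.42, adjusted p = 4.5e-05), a fold change of 6.84 with an interval of 3.65 to 12.8. HEY1 kept its call with library totals (3.69) and with the offsets (2.45). It could not be tested where 10 counts were required in every library.

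HES1 (ENSG00000114315, chr3:193853937-193856521), a repressor and the standard readout of Notch activity in the intestine, was not called. Its level was 33.7, 26.3 and 35.7 CPM in parental and 21.9, 24.2 and 20.9 CPM in mutant libraries. Every mutant library was below every parental library. The log2 fold change was -0.51 (SE 0.16, adjusted p = 0.0105), with an interval of -0.87 to -0.16, a fold change of 0.700 of the parental level. This direction turned to 0.40 with library totals and to 0.21 with offsets for length and GC content, so a direction for HES1 cannot be given apart from the scaling. Over the 6 libraries, the genes of the lists used here with the profile nearest to HES1 were TLE1, NRARP and CCND1. The root mean square differences of their centred log2 CPM from that of HES1 were 0.0738, 0.139 and 0.160.

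Levels of different genes were compared per length as RPKM, CPM divided by the deposited gene length in kilobases. In parental cells JAG2 was at 25.6 ± 3.59 RPKM (SD, n = 3) and HES1 at 20.3 ± 3.15, and their libraries overlapped. NOTCH3 at 6.38 ± 1.35 and JAG1 at 6.10 ± 1.12 RPKM followed and overlapped with each other. DLL4 (2.26 ± 0.485), NOTCH1 (2.03 ± 0.658) and NOTCH2 (1.84 ± 0.737) did not differ beyond their spread as neighbours. RBPJ at 0.790 ± 0.113, DLL1 at 0.483 ± 0.118 and HEY1 at 0.119 ± 0.0616 RPKM were each apart from the gene before. The order in mutant cells was NOTCH3 at 28.0 ± 3.27, HES1 at 14.2 ± 1.06, JAG2 at 12.5 ± 0.279, NOTCH2 at 12.0 ± 1.00, JAG1 at 10.9 ± 0.212 and RBPJ at 9.80 ± 1.58 RPKM. From JAG2 to RBPJ each gene overlapped with the next, while NOTCH3 and HES1 stood apart. NOTCH1 (4.59 ± 0.279), DLL4 (1.98 ± 0.0670), HEY1 (0.815 ± 0.117) and DLL1 (0.438 ± 0.162) followed in that order without overlap.

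**Figure D3:**
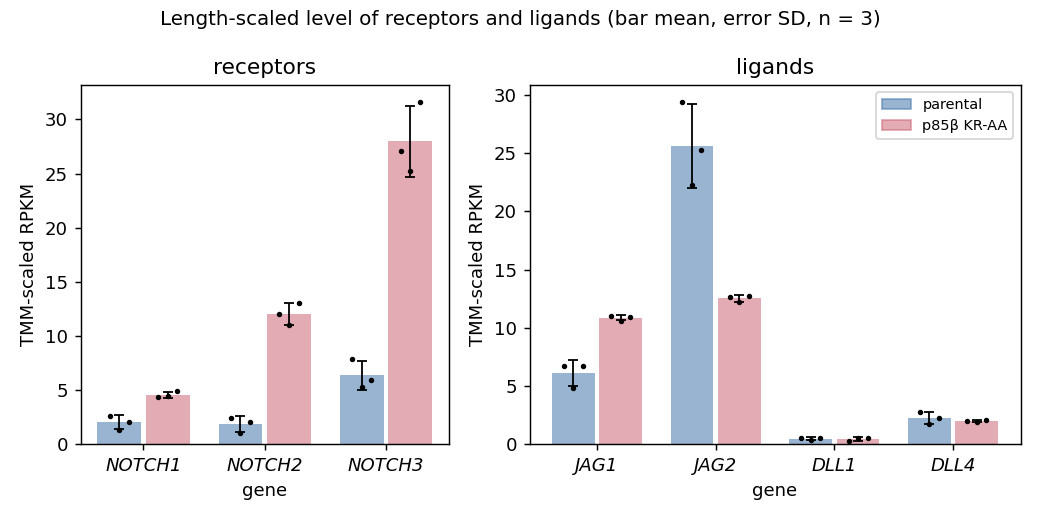
Level per length (TMM-scaled RPKM) of the receptors and ligands in each library, with bars for the mean, error bars for the SD (n = 3) and points for the libraries. The summed receptor level was 10.3 ± 2.67 RPKM in parental and 44.6 ± 4.49 RPKM in mutant cells, and the summed ligand level 34.5 ± 5.14 and 25.8 ± 0.499 RPKM, an order that turned with library totals, to 25.1 ± 4.73 and 35.5 ± 0.0519 RPKM.

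Shares within a library do not depend on how libraries are scaled, so the make-up of the receptors and ligands was compared in this way. NOTCH1 made up 19.5% ± 1.83 (SD, n = 3) of the summed RPKM of the 3 receptors in parental and 10.3% ± 0.566 in mutant cells. NOTCH2 made up 17.5% ± 3.68 and 27.0% ± 0.707. The share of NOTCH3 was 62.9% ± 5.51 and 62.7% ± 0.987, a difference of -0.241 percentage points. The share of NOTCH1 was lower, and that of NOTCH2 higher, in every mutant library than in every parental one. Among the 4 ligands JAG2 made up 74.5% ± 1.89 in parental and 48.6% ± 0.302 in mutant cells, and JAG1 17.7% ± 1.56 and 42.1% ± 0.446. DLL4 made up 6.50% ± 0.442 and 7.67% ± 0.131, and DLL1 1.39% ± 0.182 and 1.70% ± 0.628. In two-sided exact permutation tests, p was 0.1 for NOTCH1, NOTCH2, JAG1, JAG2 and DLL4, the smallest that 3 against 3 libraries allow, 0.4 for DLL1 and 1.0 for NOTCH3. Adjusted over these 7 exact tests the values were 0.14, 0.467 and 1.0. Shares do depend on length, and the offsets took the log2 fold change of JAG1 to 0.01 and that of JAG2 to -0.20. Among the receptors, the offsets gave log2 fold changes of 1.44 for NOTCH1, 1.13 for NOTCH2 and 2.20 for NOTCH3. The larger rise of NOTCH2 than of NOTCH1 was thus not kept with this correction, and NOTCH3 rose most. Shares were not computed under the offsets.

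The wider pathway was described with 65 further genes listed by role, of which 59 passed the filter. Of these 23 were called higher and 10 lower in p85β KR-AA cells, beside 28.6% and 17.6% of all genes, and their median log2 fold change was 0.95. With offsets for length and GC content 14 were called higher and 0 lower, beside 19.8% and 4.96% of all genes. With library totals 33 were called higher and 2 lower, beside 43.9% and 6.06%.

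Genes of receptor cleavage were called in both directions, 3 higher and 2 lower of 9 tested, and these small counts by role are to be read beside the shares over all genes. The metalloproteases ADAM10 (log2 fold change 2.43, adjusted p = 1.16e-07) and ADAM17 (2.02, 6.99e-08) rose, as did NCSTN (1.75, 5.89e-07), which encodes the nicastrin subunit of γ-secretase. PSENEN, which encodes another γ-secretase subunit, fell from 29.8 ± 3.89 to 7.84 ± 1.04 CPM (log2 fold change -1.92, adjusted p = 5.33e-07), and PSEN2, a presenilin, fell too (-1.62, 2.4e-06). With the offsets NCSTN remained the only called gene of this group, at 1.80, while ADAM10 was at -0.18 and PSENEN at -0.04. With library totals 5 genes of this group were called higher and 0 lower, beside 43.9% and 6.06% of all genes. PSENEN and PSEN2 thus lost their calls under both.

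Of the 5 genes that glycosylate the receptors 1 was called, POGLUT1, which was higher (2.12, adjusted p = 6.79e-06) and is named here after its value was seen. Of 9 ubiquitin ligases that act on ligands or receptors 4 were higher and 3 lower. MIB1, a ligase that ligand activity requires, was higher (2.41, adjusted p = 3.3e-06) and its relative MIB2 lower (-2.19, 2.86e-08), while with the offsets they were at -0.14 and -0.39 and neither was called. ITCH (2.34) and DTX3L (3.20) were higher, and DTX3L was also called with the offsets (1.73). DTX3 had 0 counts in every parental library and 5.37 ± 0.737 CPM in mutant libraries. This mutant mean was 24.6 times a floor of 3 counts in the shallowest parental library (0.218 CPM). The adaptors NUMB (2.28) and AAK1 (3.23), which act in endocytosis of the receptor, were higher. With the offsets ITCH (1.29), NUMB (1.48), AAK1 (1.28) and POGLUT1 (1.27) were under the fold threshold and lost their calls. NUMBL, an adaptor not called under TMM, was called higher with the offsets.

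Of the 8 coactivators 7 were called higher and 0 lower, beside 28.6% and 17.6% of all genes. Their median length was 6296 bases, and 56.7% of all genes longer than 5000 bases were called higher. MAML2 and MAML3, Mastermind-like proteins that join RBPJ and the intracellular domain, had log2 fold changes of 4.85 (adjusted p = 3.39e-08) and 3.54 (5.3e-07). MAML2 was at 0.227, 0.291 and 0.247 CPM in parental and 8.37, 7.17 and 5.98 CPM in mutant libraries, so its fold change rests on few parental counts. The acetyltransferases EP300 (log2 fold change 3.07) and CREBBP, at a fold change of 4.28, were higher as well. With the offsets 4 of the 8 were called, MAML1, MAML2, MAML3 and SNW1, and CREBBP was at 0.35. Of 13 corepressors 4 were higher and TLE2 was lower (-1.78), which turned to 0.06 with the offsets. SPEN (3.01) and NCOR1 (3.71), scaffolds of the RBPJ repressor complex, the demethylase KDM5A (1.91) and TLE4 (2.85) were the 4, of which TLE4 (2.73) kept its call with the offsets. SPEN (1.40) and NCOR1 (1.58) were then under the fold threshold, and KDM5A turned to -0.48. TLE3, not called under TMM, was called higher with the offsets.

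Of 9 tested genes listed as other targets 3 were called lower and 1 higher, beside 17.6% and 28.6% of all genes. The list includes members of the HES family, and whether each responds to Notch in these cells was not tested. With library totals 2 were lower, HES4 and HES6, and 2 higher, MYC and SOX9. HES4 was at 102, 178 and 113 CPM in parental and 15.2, 12.3 and 9.78 CPM in mutant libraries (log2 fold change -3.39, adjusted p = 3.86e-08). HES6, a family member that is known to oppose HES1, was at 91.5, 121 and 88.8 CPM against 7.12, 7.03 and 7.72 CPM (-3.78, 3.17e-09). HES2 was lower as well (-2.11, 7.32e-08). The mutant libraries of all 3 lay below the parental ones. The offsets for length and GC content left none of the 3 called, at -0.38 for HES4, -1.06 for HES6 and -1.33 for HES2, and HES4 and HES6 are short genes of 1040 and 1368 bases. SOX9, which marks intestinal stem and progenitor cells, rose from 50.9 ± 17.2 to 219 ± 9.28 CPM (a fold change of 4.29, adjusted p = 1.34e-06) and was also called with the offsets (1.89). With the offsets this group had HES7, MYC and SOX9 called higher and 0 called lower, HES7 and MYC being named after their values were seen.

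NRARP, a feedback inhibitor of Notch signalling, was at 17.3, 13.8 and 18.0 CPM in parental and 9.46, 10.3 and 8.71 CPM in mutant libraries. Its log2 fold change of -0.79 (adjusted p = 0.00121) was under the fold threshold, and it turned to 0.13 with library totals and 0.64 with the offsets. HEYL was at -0.48 (SE 0.29, adjusted p = 0.135), which turned to 0.44 and 0.04. HES5 had at most 2 counts and HEY2 at most 4 counts in any library, and neither was tested. ATOH1, the factor of secretory differentiation that HES1 represses in the intestine, had 0 counts in all 6 libraries.

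**Figure D4:**
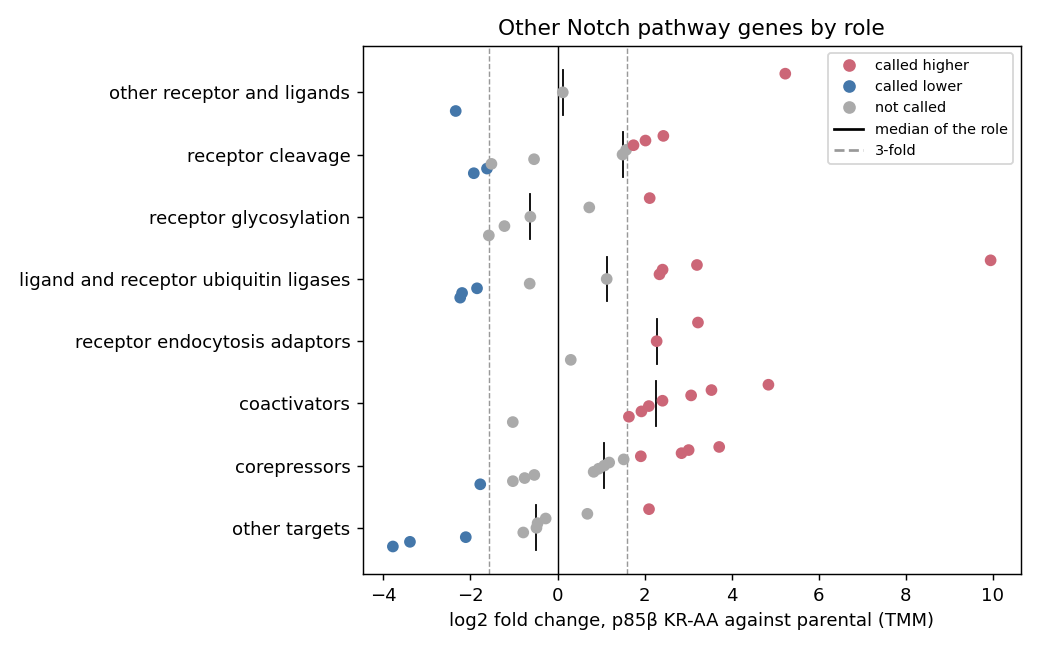
Log2 fold change (p85β KR-AA over parental, TMM) of the 59 other pathway genes tested, grouped by role, with 1 point per gene coloured by its call and a line at the median of each role. Coactivators lie mostly above 0 with 7 of 8 called higher, while genes listed as other targets lie on both sides of it.

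**Figure D5:**
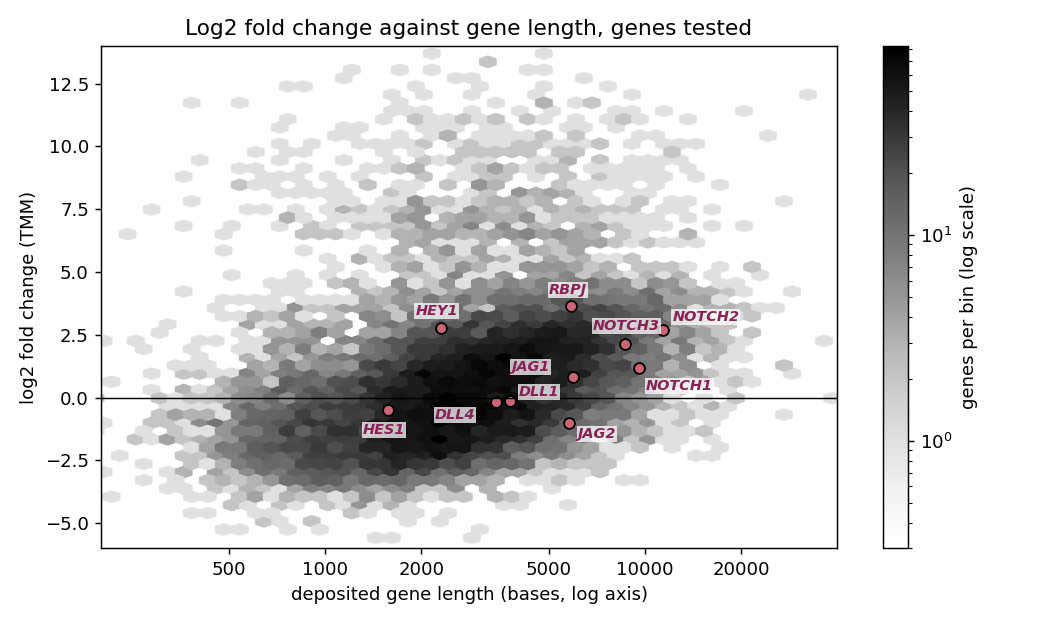
Log2 fold change of the genes tested against the deposited gene length (log axis), shaded by the number of genes per bin, with the 10 Notch genes marked and 37 of the 16059 genes outside the axes. The median was 1.90 for genes longer than 5000 bases and -0.11 for shorter genes, and JAG2 at -1.03 is the only 1 of the 6 longer Notch genes below 0.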

How the data were processed

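RNA was taken from DLD1 parental and p85β KR-AA cells, 3 libraries each, and grouped by the genotype in the labels. The authors deposited estimated counts (expected counts, not normalized) per Ensembl gene, with a gene length in another column. The submitters' processing notes name HISAT2 2.1.0, RSEM 1.3.1, DESeq2 1.24.0 and hg18, without a role or order, and the study's methods describe trimming with SeqPrep and Sickle, FPKM values and the thresholds used here. Counts were rounded and tested by the quasi-likelihood F test of edgeR 4.0.16 (R 4.3.3) after TMM scaling, with Benjamini-Hochberg adjustment and no covariate, on genes kept by filterByExpr at its minimum count of 10 and total of 15. Intervals are 95%.

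Symbols, positions and GC content were matched by Ensembl identifier to the GENCODE v44 annotation lifted to GRCh37 for 56745 of 58884 genes. The positions are those of that annotation and not of the build behind the counts. Promoters came from RefSeq on GRCh38.p14. The first base of a motif match gives its distance to the start. Replicates of a group were no copies of one library, since pairs differed by 4.08 to 35.8 times sampling noise (chi-square per degree of freedom). Depth limits low genes, and 3 counts were 0.185 to 0.218 CPM in parental and 0.0818 to 0.109 CPM in mutant libraries, for counting error only.

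The alternatives were DESeq2 1.42.0, library totals, no low-count filter, a minimum of 10 counts in each library, a block for the replicate number, leaving out each library, other thresholds, a test against a fold of 3, and offsets for length and GC content (robust spline per library, 5 degrees of freedom, MASS), which remove any relation of expression with these properties whatever its source. The code was tested on simulated counts with 200 changed genes. Without a simulated length bias edgeR recovered 97.5% of them and called 0 unchanged genes. With such a bias it recovered 82.5% and called 77 unchanged genes, and with the offsets added 95% and 1. The size of the simulated bias was set and not fitted to these data, and no GC bias was simulated. The 200 changed genes, of both directions, were few among the 15391 tested without the bias, while 46.2% of genes were called in the data. The simulation therefore cannot tell how TMM or the offsets behave with so many changes. The 10 genes, the pathway list and the marker lists were chosen with earlier results of these data known. Named beside the 10 genes were PIK3R2, near copies of the 10, the 3 nearest profiles to HES1, and up to 4 called genes per role with the largest fold change whose average log2 CPM was 2 or more, with NOTCH4, DLL3, HEY2, HEYL, HES4, HES5, NRARP and ATOH1 always named. DLK2, PSEN2, POGLUT1, DTX3, NUMBL, SNW1, MAML1, TLE2, TLE3, HES7 and MYC were named after their values were seen, some as part of a count. ChIP-seq and other assays of the study were not analysed here. Figures were drawn with matplotlib 3.10.9 in Python 3.11.15.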

Additional observations from a re-analysis of the deposited data

How the results depend on the processing

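Of the 10 genes, 4 were called higher and 0 lower under DESeq2, without the filter and with each library left out (range 4 to 4 and 0 to 0). Library totals called 6 higher, adding NOTCH1 and JAG1, with a median log2 fold change of 1.92, and offsets for length and GC content called 3, without NOTCH2. Both looser thresholds called 1 lower, JAG2. Requiring 10 counts in every library left 9 tested and 3 called. The median was 0.79 to 1.15 with a library left out. Directions turned under library totals for DLL1 (0.76), DLL4 (0.73) and HES1 (0.40), under the offsets (1.21, 1.01 and 0.21) and under the offsets with the replicate block (1.17, 1.02 and 0.22), with at least 10 counts in every library for DLL1 (0.033) and DLL4 (0.0070), and for DLL1 without p85β KR-AA replicate 1 (DLL1 ranged from -0.37 to 0.15 with a library left out). The cause was not tested. HES1 had an adjusted p of 0.0105, and of 0.000992 to 0.052 with a library left out, the lowest without parental replicate 2, and of 0.0016 by DESeq2.

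Of the other pathway genes, 23 were higher and 10 lower. Higher calls were 14 with the offsets and 15 with the block added, and lower calls were 2 with library totals, 0 with the offsets, 0 with the block added, 20 with no fold threshold and 5 in the test against a fold of 3. Their median of 0.95 was 0.80 with DESeq2, 1.86 with library totals, 0.57 with the offsets, 0.61 with the block added and 0.72 to 1.04 with a library left out. Of all genes 4597 were higher and 2825 lower, against 7052 and 973 with library totals, 3143 and 788 with the offsets (3093 and 767 with the block added), 2898 and 2100 with at least 10 counts in every library, 6074 and 4289 at an adjusted p under 0.05 with a fold of 2, 6680 and 5246 with no fold threshold, and 2974 and 1779 in the test against a fold of 3.

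Deviations of same-numbered libraries from their group means had correlations of -0.115, 0.100 and -0.0422. Those of unlike-numbered libraries ran from -0.15 to 0.203. With 3 libraries per group these values cannot tell whether same-numbered libraries share more than a number. With the replicate block 4 of the 10 were higher and 0 lower, and 4626 and 2827 of all genes, with an infinite prior degrees of freedom, so its single p-values are not given. Depth limits HEY1 in parental cells, DLL1 and DLL3.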
